A study of Mus musculus with 19 samples.

Results

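Of the 22 TRBV segments named in the deposited tables, 5 are known in BALB/c mice as targets of deletion by superantigens: TRBV12-1, TRBV12-2, TRBV15, TRBV16 and TRBV26. A TRBV segment is the variable gene that encodes most of the variable part of the T cell receptor beta chain. The 5 were chosen for that known deletion, but with earlier results of these data known. In the older nomenclature TRBV12-1 is V5.2, TRBV12-2 is V5.1, TRBV15 is V12, TRBV16 is V11 and TRBV26 is V3, as RefSeq lists the synonyms. The 5 segments held 79101 of 2146950 listed entries and 3591319 of 145647255 reads. An entry is a CDR3, in amino acids, paired with its TRBV and TRBJ segments and a read count, and the CDR3 is the loop, formed where the segments join, that mostly contacts the peptide. TRBV12-1 had 2317 entries, TRBV12-2 10738, TRBV15 41807, TRBV16 19425 and TRBV26 4814.

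Mouse mammary tumour virus has left proviruses in the genome of most laboratory strains, and each encodes a superantigen, a protein that binds MHC class II and cross-links it to receptors through the side of particular beta chains, whatever their CDR3. Thymocytes that carry such a beta chain are removed during negative selection, so that in strains with the provirus and a suitable class II molecule, I-E above all, the segment is scarce among mature CD4+ T cells. BALB/c mice express I-E and carry several such proviruses, whose known targets are the V3, V5, V11 and V12 beta chains.

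The libraries came from CD4+ TCRbeta+ cells sorted from wild-type BALB/c mice at day 7, with 500000 cells for each lymph node library and 5000 for each heart library. Ligation of the left anterior descending coronary artery gave 3 libraries of infarcted hearts and 3 of mediastinal nodes (MI), which drain the heart. The labels do not say whether a heart and a node of the same number come from the same mouse. Another 4 mediastinal node libraries followed a sham operation, an opened chest with no ligation. The axillary nodes were those of mice immunised under the skin with mouse heart extract (1 mg, 3 libraries) or porcine cardiac myosin (100 µg, 2 libraries) in TiterMax Gold adjuvant, or given 200 µl of the adjuvant alone (4 libraries). Every mediastinal library thus followed surgery and every axillary library followed adjuvant, so node site and treatment cannot be told apart, and the ages of the mice are not stated in the labels. No strain without the proviruses was included, so the files hold no level of these segments in the absence of deletion.

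The node libraries had 7534295 to 9235800 reads and the heart libraries 2426715 to 5126910. Mediastinal libraries listed 52869 to 230684 distinct CDR3s, axillary libraries 38437 to 97629 and heart libraries 2898 to 4795. A single library's share of reads has a 95% Wilson interval of at most 0.017 percentage points on either side, which covers counting error only, since amplified reads are not independent molecules. Because the libraries are of bulk cells, fewer cells with a segment and less receptor RNA per cell cannot be told apart in a share of reads. Low shares were not limited to the 5. TRBV12-2, TRBV26 and TRBV12-1 ranked 17th, 18th and 21st of the 22 segments by mean share of the node libraries, whereas TRBV16 and TRBV15 ranked 12th and 13th, ahead of TRBV3, TRBV17 and TRBV29, and TRBV30, TRBV24 and TRBV23, which are not among the 5, ranked 19th, 20th and 22nd.

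The CDR3s below carry the results that follow, and a label that names only a heart does not mean that no node library listed the entry. They are leading heart entries of TRBV12-2, TRBV15 and TRBV26, the entries listed in the most node libraries for TRBV12-1, TRBV12-2, TRBV15 and TRBV16, and TRBV16 heart entries shown because they share their first 6 residues, which are not in every heart the largest, all as deposited, so that the conserved first cysteine and last phenylalanine are left off.
TRBV16 with TRBJ2-7, hearts 1 and 2 and 11 node libraries: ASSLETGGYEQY
TRBV16 with TRBJ2-7, heart 3: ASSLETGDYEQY
TRBV16 with TRBJ1-2, heart 3: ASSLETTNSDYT
TRBV16 with TRBJ2-7, heart 1: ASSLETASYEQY
TRBV16 with TRBJ2-5, heart 2: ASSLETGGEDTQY
TRBV16 with TRBJ1-1, 12 node libraries: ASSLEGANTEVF
TRBV15 with TRBJ2-1, heart 1: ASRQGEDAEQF
TRBV15 with TRBJ2-7, 15 node libraries: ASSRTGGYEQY
TRBV12-2 with TRBJ1-2, heart 3: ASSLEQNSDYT
TRBV12-2 with TRBJ2-5, 13 node libraries: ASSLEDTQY
TRBV12-1 with TRBJ1-2, 5 node libraries: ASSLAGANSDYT
TRBV26 with TRBJ2-5, heart 2: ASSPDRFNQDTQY

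TRBV16 (V11) separated the mediastinal from the axillary nodes completely. It held 2.03%, 1.32% and 1.59% of the reads in MI nodes and 1.57%, 1.64%, 2.14% and 1.83% in sham nodes. In the axillary nodes it held 1.15%, 0.955% and 0.778% after heart extract, 0.853% and 0.903% after myosin, and 0.749%, 0.789%, 0.989% and 1.00% after adjuvant alone. The lowest of the 7 mediastinal libraries lay above the highest of the 9 axillary libraries, and TRBV16 was the only one of the 22 segments (4.55%) whose shares were higher without overlap. The mean was 1.73% ± 0.29 in mediastinal nodes (SD, n = 7) and 0.907% ± 0.13 in axillary nodes (SD, n = 9), a log2 fold change of 0.93 ± 0.11 (SE) with an adjusted p of 7.1e-06 in edgeR's quasi-likelihood test with Benjamini-Hochberg adjustment over all 22 segments. Between sham and adjuvant nodes alone the log2 fold change was 1.02 ± 0.15 (SE, edgeR adjusted p = 1.0e-04).

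The rise of TRBV16 in mediastinal nodes was also present in its share of all entries. Its entries were 1.03% ± 0.16 of all entries in mediastinal nodes (SD, n = 7) and 0.706% ± 0.095 in axillary nodes (SD, n = 9), with an adjusted p of 0.0035 by exact two-sided permutation over 11440 splits. Shares of entries passed that test for 8 of the 22 segments (36.4%). Reads per entry were 95.4 ± 55.1 in mediastinal and 131 ± 42.2 in axillary nodes (SD), and its most abundant entry held 2.35% ± 0.99 and 2.20% ± 0.94 of its reads there. Neither passed the exact permutation test (adjusted p = 0.24 and 0.85).

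**Figure D1:**
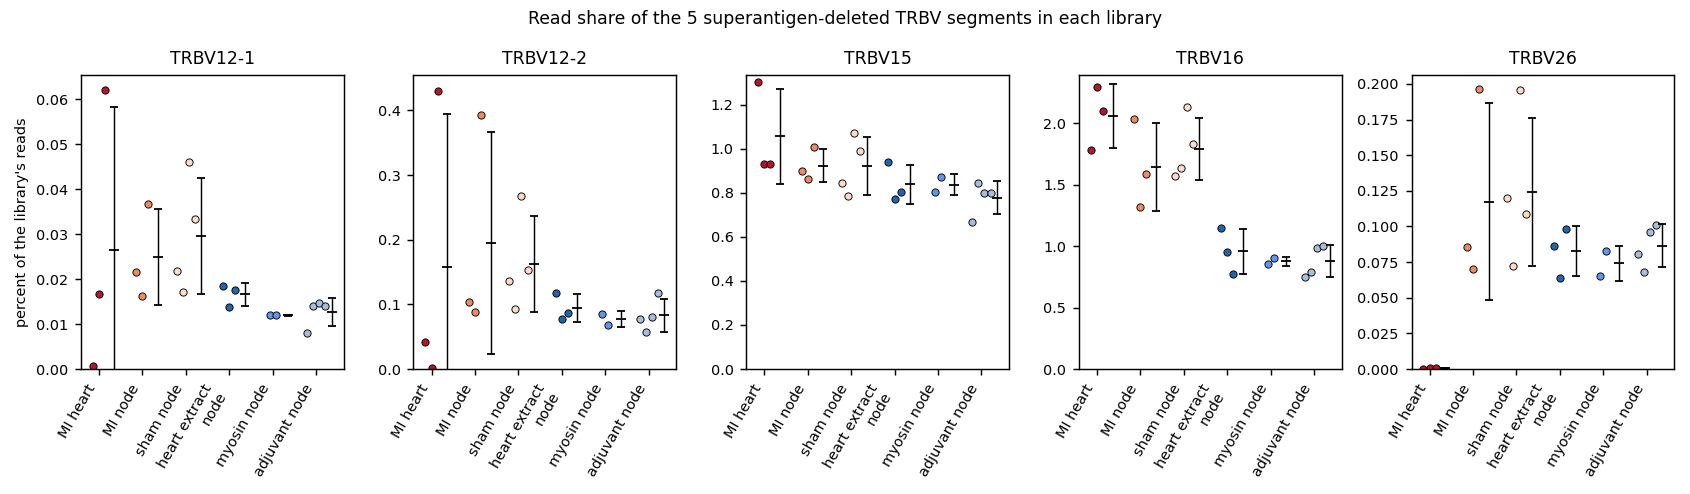
Percent of each library's reads (vertical axes, a scale for each segment) assigned to the 5 segments, by group. Points are libraries, and the dash and bar beside them are the group mean and SD; the 7 TRBV16 points of the mediastinal nodes (MI and sham) sit between 1.32% and 2.14%, above the 9 axillary points at 0.749% to 1.15%.

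TRBV12-1 and TRBV12-2 (V5.2 and V5.1) were also higher in mediastinal nodes, at far lower shares. TRBV12-2 held 0.103%, 0.0877% and 0.393% of reads in MI nodes and 0.137%, 0.0932%, 0.267% and 0.154% in sham nodes. The axillary values were 0.118%, 0.0771% and 0.0873% after heart extract, 0.0857% and 0.0687% after myosin, and 0.0779%, 0.0566%, 0.0805% and 0.117% after adjuvant. MI node 3 and sham node 3 stood highest and the sites overlapped at the lower mediastinal values. The mean was 0.176% ± 0.11 in mediastinal nodes (SD, n = 7) and 0.0854% ± 0.020 in axillary nodes (SD, n = 9), and the log2 fold change was 1.04 ± 0.32 (SE) with an adjusted p of 0.014 in edgeR.

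TRBV12-1 is the scarcer of the pair, with a mean share of 0.0199% over the 16 node libraries. It held 0.0215%, 0.0162% and 0.0368% of reads in MI nodes and 0.0218%, 0.0172%, 0.0461% and 0.0333% in sham nodes. It held 0.0184%, 0.0137% and 0.0177% after heart extract, 0.0119% and 0.0121% after myosin, and 0.00799%, 0.0141%, 0.0147% and 0.0140% after adjuvant. All 4 sham libraries lay above all 4 adjuvant libraries, while MI node 2 and sham node 2 fell within the axillary range. Of the 22 segments, 2 (9.09%) were higher without overlap between sham and adjuvant nodes and 5 (22.7%) were lower. The log2 fold change was 1.00 ± 0.24 for mediastinal over axillary nodes (SE, edgeR adjusted p = 0.0034) and 1.22 ± 0.34 for sham over adjuvant nodes (SE, edgeR adjusted p = 0.014).

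The 2 TRBV12 genes are close copies, and 775 of 2302 TRBV12-1 entries in the node libraries (33.7%) were also listed with TRBV12-2 in the same library, with 28.2% of the TRBV12-1 reads. Both were also listed with other segments. Where another segment had the same CDR3 and TRBJ at 2 or more times the reads, it was TRBV3 for 38.1% of those TRBV12-1 reads and 61.6% of those TRBV12-2 reads. Whether the overlap comes from segment assignment was not tested, and the values of both genes are uncertain to that extent. Counted by distinct entries in place of reads, neither kept its call: TRBV12-1 had a log2 fold change of 0.39 (edgeR adjusted p = 0.057) and TRBV12-2 of -0.01 (edgeR adjusted p = 0.94) between the sites. With edgeR's current default settings both calls were lost as well (adjusted p = 0.93 and 0.55), and TRBV16 alone of the 5 kept its call between the sites under every alternative run.

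TRBV15 (V12) varied least of the 5 in relation to its mean. It held 0.900%, 0.860% and 1.01% of reads in MI nodes and 0.846%, 0.784%, 1.07% and 0.990% in sham nodes. After heart extract it held 0.938%, 0.773% and 0.804%, after myosin 0.802% and 0.870%, and after adjuvant 0.668%, 0.842%, 0.798% and 0.800%. The sites overlapped widely, and the log2 fold change of mediastinal over axillary nodes, 0.19 ± 0.085 (SE), did not pass (edgeR adjusted p = 0.076).

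TRBV26 (V3) held 0.0858%, 0.0699% and 0.197% of reads in MI nodes and 0.120%, 0.0725%, 0.195% and 0.109% in sham nodes. It held 0.0861%, 0.0638% and 0.0984% after heart extract, 0.0652% and 0.0829% after myosin, and 0.0808%, 0.0679%, 0.0958% and 0.101% after adjuvant. As with TRBV12-2, MI node 3 and sham node 3 were the 2 highest libraries, and the lower mediastinal values lay within the axillary range. The log2 fold change between the sites was 0.56 ± 0.25 (SE, edgeR adjusted p = 0.076).

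In all, 3 of the 5 segments were higher in mediastinal nodes and none lower, where 9 of the 22 segments (40.9%) were called and 6 (27.3%) were called higher. The median log2 fold change was 0.93 over the 5 segments and 0.05 over the 22. Between sham and adjuvant nodes 2 of the 5 were higher, against 5 of 22 higher (22.7%) and 10 called in either direction (45.5%), with medians of 0.97 and 0.11. Both comparisons share the sham and adjuvant libraries. Without sham node 2, all 5 segments were called higher in mediastinal nodes, TRBV15 and TRBV26 each at an edgeR adjusted p of 0.037. Of the 16 node libraries left out in turn, TRBV15 was called without 1 of them and TRBV26 without 2. With distinct entries in place of reads, or with edgeR's current settings, only TRBV16 was called.

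Mediastinal libraries also listed more distinct CDR3s, 150583 ± 65741 (SD, n = 7) against 72099 ± 23856 in axillary libraries (SD, n = 9), and the part of this in the differences between the sites was not tested. Within a site, 0 of 10 correlations of a segment's share with the number of distinct CDR3s passed (exact permutation of pairings, adjusted over 44 correlations; 0 of 10 at an unadjusted p under 0.05). For TRBV16 Pearson's r was 0.083 over the 7 mediastinal libraries (permutation p = 0.85; Spearman's rho 0) and -0.015 over the 9 axillary libraries (permutation p = 0.97; rho 0.083). Without the 2 libraries farthest from the median CDR3 number, MI node 2 and sham node 4, the mediastinal r was 0.95, so the low value rested on those libraries; the axillary r without the 2 farthest was -0.19.

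**Figure D2:**
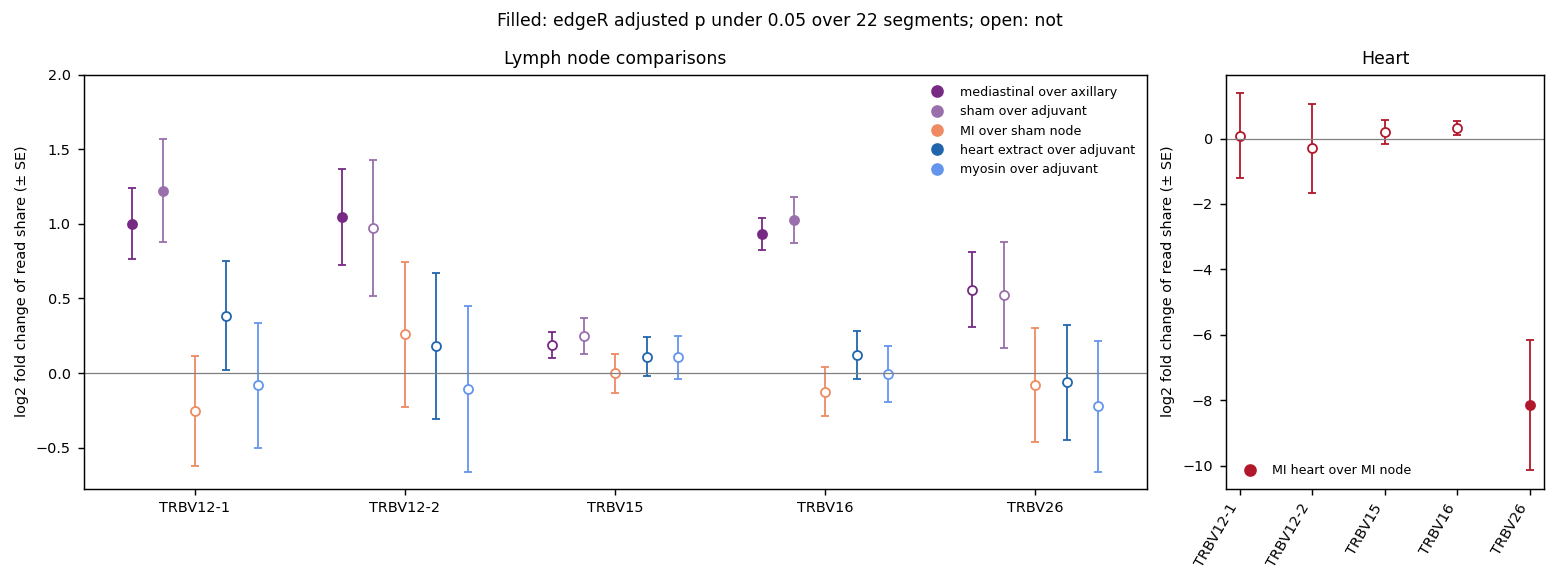
Log2 fold change of read share with its SE (vertical axis) for the 5 segments, for node comparisons on the left and infarcted heart over MI node on the right, on separate scales. Filled symbols passed an edgeR adjusted p of 0.05 over 22 segments: TRBV16, TRBV12-1 and TRBV12-2 for mediastinal over axillary nodes, TRBV16 and TRBV12-1 for sham over adjuvant, and TRBV26 for the heart.

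Whether infarction changed these segments in the draining node was asked by setting MI nodes against sham nodes. None of the 5 differed, and none of the 22 segments did (0%; edgeR adjusted p from 0.976 to 0.995 for the 5; 0 of 22 at an unadjusted p under 0.05, and 0 of 22 by DESeq2). The largest log2 fold changes of the 5 were 0.26 ± 0.49 for TRBV12-2 and -0.25 ± 0.37 for TRBV12-1 (SE), and the group ranges overlapped for each of the 5. TRBV16 had -0.12 ± 0.16 and TRBV15 0.00 ± 0.13 (SE). With entries under 10 reads left out, 2 of the 22 segments were called lower in MI nodes, none of them among the 5. At an unadjusted edgeR p under 0.05 there were 3 of 22 with that filter. There were 4 of 22 with distinct entries in place of reads.

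The same question was put to immunisation with cardiac antigens. Heart extract against adjuvant alone called 0 of the 5 segments, where 2 of the 22 (9.09%) were called (edgeR adjusted p from 0.64 to 0.99 for the 5; 0 of 5 at an unadjusted p under 0.05 and by DESeq2). The log2 fold changes ran from -0.06 ± 0.38 for TRBV26 to 0.39 ± 0.37 for TRBV12-1 (SE). Myosin against adjuvant, with 2 and 4 libraries, also called 0 of the 5 and 0 of the 22 segments (0%; edgeR adjusted p = 0.974 for each of the 5; 0 of 5 at an unadjusted p under 0.05 and by DESeq2), with log2 fold changes from -0.22 ± 0.44 for TRBV26 to 0.11 ± 0.15 for TRBV15 (SE). These 2 comparisons share the adjuvant libraries.

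Few TRBV26 reads were listed in the infarcted hearts. It had 0, 32 and 25 reads in hearts 1, 2 and 3, against 6485, 5921 and 18012 reads in MI nodes 1, 2 and 3. As shares the 2 hearts with reads had 0.000727% and 0.000488%, against 0.0858%, 0.0699% and 0.197% in the nodes. The 3 hearts lay below the 3 nodes without overlap, which 6 of the 22 segments did (27.3%). The log2 fold change was -8.14 ± 1.99 (SE, edgeR adjusted p = 5.2e-04), and 5 of the 22 segments (22.7%) were called lower. The size depended on the measure: counted by distinct entries in place of reads the log2 fold change was -1.95 (edgeR adjusted p = 0.045), with TRBV26 at 0.0455% ± 0.061 of entries in hearts and 0.205% ± 0.081 in MI nodes (SD, n = 3 each), and without the entries shared with another segment it was -11.45 (edgeR adjusted p = 6.4e-05). With edgeR's current default settings the adjusted p was 0.98. The hearts held 5000 sorted cells against 500000 for a node. Of other scarce segments, TRBV23 and TRBV24 were listed in no heart, while TRBV30 and TRBV12-1 were listed in all 3. Their mean shares of MI node reads were 0.00562%, 0.0340%, 0.0685% and 0.0248%, against 0.117% for TRBV26. The part of cell number in the TRBV26 difference was not tested.

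The few TRBV26 reads of the hearts had CDR3s that were listed with other segments too. The single entry of heart 2, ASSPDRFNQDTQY with 32 reads, was listed in the same library with TRBV3 at 2322 reads, and 92.0% of the TRBV26 reads of heart 3 also had a CDR3 and TRBJ listed with another segment at 2 or more times the reads. This was not particular to TRBV26. The same measure was 99.0%, 72.1% and 0.499% for TRBV12-2 in hearts 1, 2 and 3. For TRBV12-1 it was 100%, 0.274% and 0.188%.

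The other 4 segments did not pass between heart and MI node (edgeR adjusted p from 0.29 to 0.94), and the hearts spread widely. TRBV16 held 1.79%, 2.30% and 2.10% of reads in the hearts, against 2.03%, 1.32% and 1.59% in MI nodes, overlapping at heart 1. TRBV15 held 1.30%, 0.932% and 0.932% in the hearts, against 0.900%, 0.860% and 1.01% in MI nodes, with heart 1 above all nodes. Their log2 fold changes were 0.33 ± 0.22 and 0.20 ± 0.36 (SE).

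TRBV12-2 held 0.0418%, 0.00139% and 0.430% of reads in the hearts, against 0.103%, 0.0877% and 0.393% in MI nodes. Hearts 1 and 2 lay below every node and heart 3 above every node. Its log2 fold change was -0.30 ± 1.35 (SE), and without heart 3 it was -3.17 (edgeR adjusted p = 0.054). TRBV12-1 held 0.000618%, 0.0166% and 0.0621% in the hearts, against 0.0215%, 0.0162% and 0.0368% in MI nodes, with heart 1 lowest and heart 3 highest, and a log2 fold change of 0.09 ± 1.29 (SE).

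Several of these heart shares were made up mostly of a single CDR3. In heart 3 the entry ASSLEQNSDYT, with 21642 reads, was 98.1% of TRBV12-2 reads and an entry with TRBJ2-1 and 3136 reads was 98.4% of TRBV12-1 reads. In heart 1 the entry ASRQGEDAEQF, with 29732 reads, was 93.9% of TRBV15 reads, while the leading TRBV15 entries of hearts 2 and 3 were 21.4% and 22.3%. The leading TRBV12-1 entries of hearts 1 and 2 held 100% and 99.5% of its 15 and 731 reads. In the node libraries the leading entry of TRBV15 held 0.566% to 5.51% of its reads and that of TRBV16 0.605% to 4.15%. The node ranges were wider for the scarcer segments. They were 2.07% to 19.2% for TRBV12-1, 3.44% to 16.1% for TRBV12-2 and 2.01% to 36.4% for TRBV26. Most TRBV16 and TRBV15 entries of the hearts were near copies of a large one: 37 of 47, 73 of 87 and 40 of 53 TRBV16 entries and 26 of 44, 61 of 97 and 73 of 96 TRBV15 entries in hearts 1, 2 and 3 differed by 1 substitution from an entry with at least 50 times their reads. The counts were 4 of 9, 0 of 8 and 13 of 33 for TRBV12-2, 0 of 1, 1 of 3 and 7 of 11 for TRBV12-1, and 0 of 1 and 0 of 6 for TRBV26 in hearts 2 and 3. Entries with 100 or more reads numbered 6, 10 and 9 there for TRBV16, and 5, 14 and 15 for TRBV15.

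**Figure D3:**
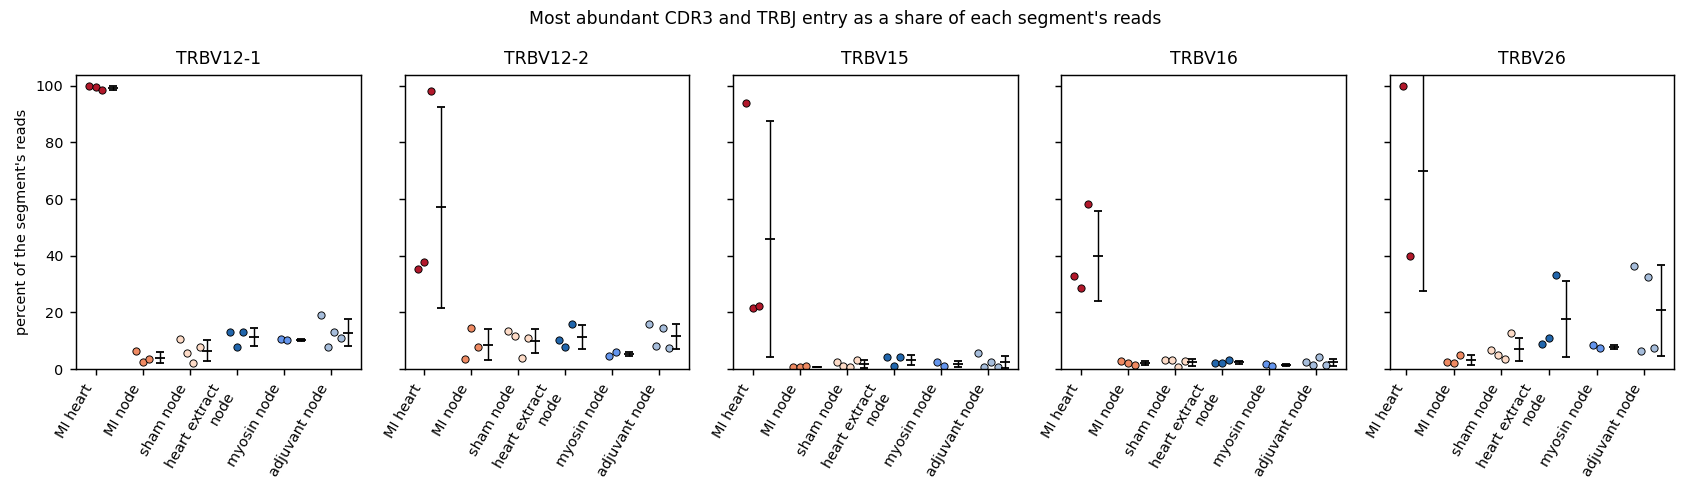
Share of each segment's reads held by its most abundant CDR3 and TRBJ entry (vertical axis, percent), by group. Points are libraries, and the dash and bar are the group mean and SD; hearts reach 98.1% for TRBV12-2 and 93.9% for TRBV15, while TRBV15 and TRBV16 stay at or below 5.51% in every node library, and heart 1 has no TRBV26 point because it listed no read.

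Some of these heart entries also occurred in the nodes, which was common among heart entries. Outside the 5 segments, 259 of 455, 397 of 658 and 518 of 830 entries with 100 or more reads in hearts 1, 2 and 3 were listed in nodes. These were listed with the same segment. For TRBV15 the counts were 2 of 5, 6 of 14 and 6 of 15, and for TRBV16 3 of 6, 4 of 10 and 6 of 9. The other members had at most 3 such entries in a heart. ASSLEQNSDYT was listed with TRBV12-2 in 3 node libraries, all mediastinal, with 30 and 2 reads in MI nodes 1 and 2 and 2 reads in sham node 2. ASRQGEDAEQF was listed with TRBV15 in MI node 1 alone of the node libraries, with 374 reads. The leading TRBV12-1 entry of heart 3 was in no node library. In heart 3 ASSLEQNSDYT was also listed with TRBV3 at 1413 reads, and in heart 1 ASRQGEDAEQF was also listed with TRBV4 at 8830 reads, both below the reads with the segment named first.

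CDR3s that open with the residues ASSLET made up most of the TRBV16 reads of hearts 1 and 3 and a smaller part of those of heart 2. This run was noticed after the values had been seen, and its counts are a description. It covered 67.0%, 22.7% and 86.4% of TRBV16 reads in hearts 1, 2 and 3, against 1.19% to 7.69% in the 16 node libraries, with 7.69% the value of MI node 1. Among reads of all other segments pooled it covered at most 0.063% in a node library. Within other segments of the 5 it reached more. Its highest node values were 9.58% of TRBV12-2 reads (heart extract node 1) and 4.49% of TRBV26 reads (sham node 4). They were 3.39% of TRBV15 reads (adjuvant node 3) and 0.43% of TRBV12-1 reads (MI node 1). In the nodes the run was thus not limited to TRBV16. As shares of the whole library these TRBV16 reads were 1.20%, 0.522% and 1.81% in the hearts, against 0.0118% to 0.156% in the nodes. The shorter opening ASSL was common in TRBV16 everywhere, with 70.0% to 79.5% of its reads in the node libraries and 93.6%, 65.6% and 99.7% in hearts 1, 2 and 3.

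The heart CDR3s with the run differed after it. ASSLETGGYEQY had 14304 reads in heart 1 and 10555 in heart 2, and none listed in heart 3. Heart 3 had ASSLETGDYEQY with 62553 reads, which was 1.22% of its library, and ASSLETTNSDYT with 23638 reads. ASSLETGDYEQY was also listed in 5 node libraries, with 1638 and 46 reads in MI nodes 3 and 2, 389 and 85 in sham nodes 3 and 1, and 996 in adjuvant node 2. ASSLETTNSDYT was listed in 1 node library, with 30 reads. Heart 1 also had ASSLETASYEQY with 10966 reads, which 3 node libraries listed, all of MI nodes, with 41 to 2078 reads. Heart 2 had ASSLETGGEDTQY with 12015 reads, which no node library listed. The largest TRBV16 entries of heart 2 lacked the run: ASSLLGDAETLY with TRBJ2-3 had 28974 reads, 28.6% of its TRBV16 reads, and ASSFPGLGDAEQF with TRBJ2-1 had 19375 reads, 19.1%. In heart 1 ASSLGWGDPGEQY with TRBJ2-7 lacked it too, with 11271 reads. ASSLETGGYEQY was listed in 11 of the 16 node libraries, 7 of 7 mediastinal and 4 of 9 axillary. Its reads were 4611, 2299 and 4 in MI nodes and 241, 741, 19 and 910 in sham nodes, against 492, 375 and 0 after heart extract, 21 and 0 after myosin, and 0, 2, 0 and 0 after adjuvant. The first 2 MI nodes were highest and MI node 3 was among the lowest, so the MI and sham ranges overlapped.

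**Figure D4:**
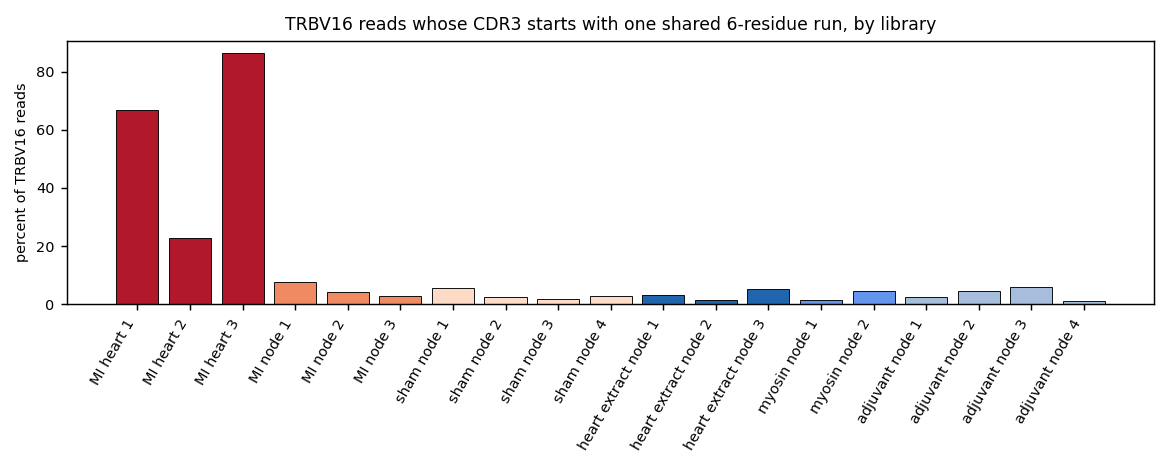
Percent of TRBV16 reads (vertical axis, from 0) whose CDR3 opens with the run ASSLET, 1 bar for each of the 19 libraries, coloured by group. The 3 heart bars stand at 67.0%, 22.7% and 86.4%, and the 16 node bars at 1.19% to 7.69%.

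Among the node libraries most entries of the 5 segments were private. Of distinct CDR3 and TRBJ combinations, 94.9% were listed in a single node library for TRBV12-1, 91.7% for TRBV12-2, 82.7% for TRBV15, 87.1% for TRBV16 and 95.1% for TRBV26. TRBV15 had 244 combinations in 8 or more of the 16 node libraries, TRBV16 had 37, TRBV12-2 had 9, TRBV26 had 1 and TRBV12-1 had 0. The most widespread was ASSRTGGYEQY with TRBV15, absent only from the list of sham node 4. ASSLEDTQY with TRBJ2-5 was the most widespread for TRBV12-2, in 13 node libraries, and also for TRBV26, in 8. Where each had its highest share, another segment had more reads of the same CDR3 and TRBJ. For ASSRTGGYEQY in myosin node 2 it was TRBV4, with 970 reads against 267. For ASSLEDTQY it was TRBV16 in heart extract node 2 (332 against 112 for TRBV12-2) and TRBV3 in MI node 3 (93 against 79 for TRBV26). The part of such sharing in their spread was not tested.

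The entry with the highest share of a node library was private for 4 of the segments. For TRBV12-2 it was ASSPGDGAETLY with TRBJ2-3 in MI node 3, with 2858 reads, 7.94% of the TRBV12-2 reads of the library in which the segment stood highest. For TRBV26 it was AQGQTEVF with TRBJ1-1 in heart extract node 3, with 2527 reads or 33.0% of TRBV26 reads there, for TRBV15 it was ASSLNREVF with TRBJ1-1 in heart extract node 1, with 3017 reads, and for TRBV12-1 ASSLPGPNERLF with TRBJ1-4 in sham node 4, with 219 reads. For TRBV16 it was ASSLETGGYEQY, with 4611 reads in MI node 1. The heart entry of TRBV15 listed in the most node libraries was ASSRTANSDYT with TRBJ1-2, which had 183 reads in heart 3 and was in 11 node libraries. Heart 3 also listed it with TRBV4, at 805 reads.

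The CDR3s of the 5 segments were shorter than those of the rest of the same library. The read-weighted mean length over the 16 node libraries was 11.0 residues ± 0.65 for TRBV26, 11.3 ± 0.10 for TRBV15, 11.5 ± 0.32 for TRBV12-2, 11.7 ± 0.25 for TRBV12-1 and 11.9 ± 0.087 for TRBV16 (SD, n = 16), against 12.1 ± 0.018 for the rest. TRBV12-2 was shorter in 15 of 16 libraries and the other 4 in 16 of 16, and each of the 5 passed an exact sign-flip test over libraries (adjusted p from 3.7e-05 to 7.1e-05). So did 21 of the 22 segments (95.5%), and 17 of 22 (77.3%) were shorter, so shorter CDR3s were the rule among segments.

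TRBJ use differed among the 5. TRBV12-1 used TRBJ1-2 for 34.2% ± 9.5 of its reads over the node libraries (SD, n = 16) and TRBV12-2 used it for 13.2% ± 7.2, against 4.65% ± 0.31 in the segments outside the 5. TRBV12-2 used TRBJ2-5 for 23.2% ± 8.0, against 9.69% ± 0.59 outside the 5. The J1 cluster as a whole took 55.3% ± 10.2 of TRBV12-1 reads, 51.9% ± 13.4 of TRBV26, 45.7% ± 3.3 of TRBV15, 37.6% ± 4.6 of TRBV16 and 34.8% ± 9.4 of TRBV12-2 (SD). TRBV16 lay below the rest of its library in 16 of 16 libraries (exact sign-flip adjusted p = 5.6e-05), and 18 of 22 segments (81.8%) passed that test, 9 higher (40.9%) and 9 lower (40.9%). Between the sites only TRBV15 of the 5 differed, with 43.6% ± 3.7 in mediastinal and 47.2% ± 1.9 in axillary nodes (exact permutation adjusted p = 0.035), as 15 of 22 segments did (68.2%).

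Reads per entry lay above the rest for TRBV16 and below it for the other 4. TRBV16 had 115 ± 49.9 reads per entry, against 83.4 ± 43.8 for the rest of the library, and was higher in 16 of 16 node libraries. TRBV15 had 36.3 ± 20.1, TRBV26 32.2 ± 13.3, TRBV12-2 16.6 ± 7.6 and TRBV12-1 13.7 ± 6.1 reads per entry (SD, n = 16), each lower than the rest in 16 of 16. All 5 passed the exact sign-flip test (adjusted p = 3.4e-05), as 21 of 22 segments did (95.5%), with 6 of 22 higher (27.3%) and 15 lower (68.2%). Between the sites the leading entry of TRBV12-1 held 5.46% ± 3.1 of its reads in mediastinal and 11.8% ± 3.5 in axillary nodes (exact permutation adjusted p = 0.029), and it was the only segment of 22 to pass (4.55%).

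A large part of the reads of 4 of the segments had a CDR3 and TRBJ that the same library also listed, with at least 2 times the reads, under another TRBV segment. That part was 41.8% ± 4.9 for TRBV15, 36.2% ± 13.2 for TRBV12-2, 26.5% ± 8.6 for TRBV12-1 and 15.2% ± 4.2 for TRBV26, but 2.91% ± 2.0 for TRBV16 (SD, n = 16 node libraries), against 3.39% to 3.73% for the rest of the library. TRBV16 was below the rest in 13 of 16 libraries and the other 4 above it in 16 of 16, and of all 22 segments 13 were above (59.1%) and 8 below (36.4%) by the exact sign-flip test. With at least 10 times the reads, the parts were 7.86% for TRBV15, 24.7% for TRBV12-2, 17.6% for TRBV12-1, 8.48% for TRBV26 and 0.374% for TRBV16, and 20 of 22 segments (90.9%) differed from the rest of their library by the exact sign-flip test. The partner was TRBV4 for 73.0% of the TRBV15 reads shared at 2 or more times, and TRBV3 for 41.7% of those of TRBV26, for 61.6% of those of TRBV12-2 and for 38.1% of those of TRBV12-1. Whether such reads come from separate clones, from primers or from segment assignment was not tested.

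**Figure D5:**
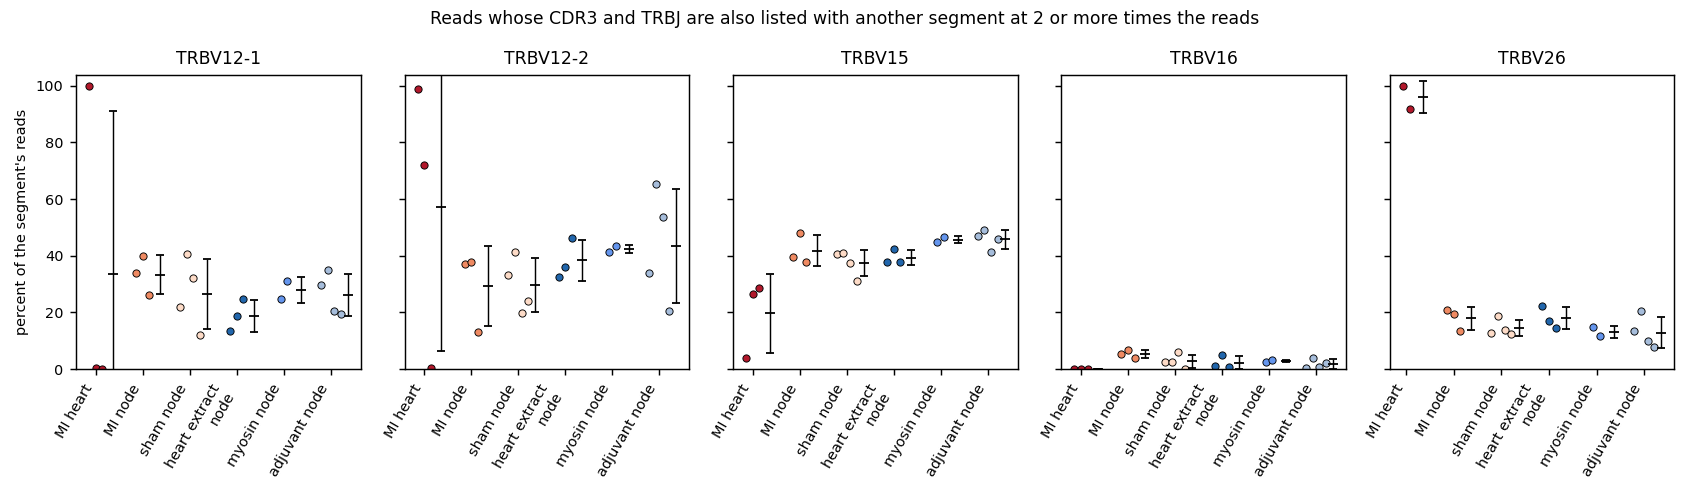
Percent of each segment's reads (vertical axis) whose CDR3 and TRBJ were listed in the same library with another TRBV segment at 2 or more times the reads, by group. Points are libraries, and the dash and bar are the group mean and SD; TRBV16 stays at or below 6.69% in every node library while TRBV15 lies between 31.1% and 49.0%.

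Across the 16 node libraries the segments whose log2 shares followed each member most closely were often other members. For TRBV12-1 these were TRBV15 (Pearson's r = 0.89) and TRBV12-2 (0.85), for TRBV12-2 they were TRBV26 (0.91) and TRBV12-1 (0.85), and for TRBV15 they were TRBV12-1 (0.89) and TRBV12-2 (0.73). TRBV16 was followed most closely by TRBV29 (0.85) and TRBV12-1 (0.82), and TRBV26 by TRBV12-2 (0.91) and TRBV24 (0.83). These values pool the sites and describe the libraries, in which all shares divide the same total.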

How the data were processed

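The deposited tables, 1 for each of 19 libraries, hold raw whole-number read counts per CDR3, TRBV and TRBJ, with 2 as the lowest count listed and no normalization by the authors. Per the labels' protocols, a provider amplified TRB transcripts by multiplex PCR with segment primers and sequenced pooled libraries. No molecular identifiers are mentioned. The aligner, error correction and segment reference were not given in the sources used here. The tables name no genome build. Whether a library is 1 animal is not in the labels, so the spread behind each p-value is that of these samples and may be technical.

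Reads were summed per segment. Segments were tested with edgeR 4.0.16 (R 4.3.3; quasi-likelihood, robust, legacy settings, library total as offset), with the 16 node libraries in 1 fit and the 6 heart and MI node libraries in another, and Benjamini-Hochberg adjustment at 0.05 over all 22 segments. For entry features an exact two-sided permutation of libraries was used, and a segment against the rest of its library by exact two-sided sign flips. In the 3 against 3 heart comparison such a permutation cannot give a p under 0.10, and in myosin against adjuvant none under 0.067. Tests were tried on simulated data first. Alternatives were TMM factors, DESeq2 1.42.0, edgeR's current settings, distinct entries in place of reads, a filter at 10 reads, the 100 most abundant CDR3s or entries shared between segments left out, segments under 0.1% left out, a replicate block and each library left out.

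Replicate numbers were not used as pairs, because the labels do not say whether they mark animals. Deviations of same-numbered libraries over CDR3s correlated at -0.026 to 0.032, with 0.026, 0.024 and 0.032 for heart and MI node. With no pair known to share an animal to set beside them, these values cannot show whether same-numbered libraries do. The 5 segments were always named, and entries were named by rule: those in the most node libraries, those with the highest share of a node or heart library, and the heart entry in the most node libraries. The segments and rules were chosen with earlier results of these data known.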

Additional observations from a re-analysis of the deposited data

Results flagged for a closer look

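Of 20 sets of libraries examined for a library that stands apart (each of the 5 segments in sham, adjuvant, mediastinal and axillary nodes), 1 met Dixon's 95% criterion, as about 1 in 20 would by chance. The share of TRBV12-1 in adjuvant node 1 was 0.00799%, with a gap to the next adjuvant library that was 0.898 of the range of the 4. That library's TRBV12-1 reads came from 57 entries. Without it, TRBV12-1 still passed between sham and adjuvant nodes.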

How the results depend on the processing

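TRBV16 was higher in mediastinal than in axillary nodes, and in sham than in adjuvant nodes, under all 25 and all 18 alternatives run (log2 fold change 0.55 to 0.99 and 0.63 to 1.09; edgeR or DESeq2 adjusted p at most 1.9e-04 and 0.0053). The number of the 5 segments called higher between the sites (3) was 1 with edgeR's current settings, 1 with distinct entries in place of reads, and 3 to 5 with a library left out, 5 only without sham node 2. Between sham and adjuvant nodes (2) it was 1 with each of those settings and 1 with segments under 0.1% left out, which removes TRBV12-1 and TRBV26 from the test, and it was 2 whichever library was left out. The call of TRBV26 in the heart was lost with current edgeR settings (0 called, log2 fold change -7.98, adjusted p = 0.98) and cannot be made with segments under 0.1% left out (0 called); it held without each library (-8.80 to -7.55) and ran from -11.45 without shared entries to -1.95 with distinct entries over the other alternatives. The cause of these losses was not tested, beyond the segments removed. Over all 22 segments, the calls between the sites were 6 higher and 3 lower, but 6 and 6 with TMM factors and 5 and 6 with DESeq2; between sham and adjuvant nodes they were 5 and 5, but 3 and 6 with TMM factors and 4 and 6 with DESeq2; and in the heart 1 and 5, but 1 and 3 with TMM factors, 3 and 4 with DESeq2 and 1 and 0 with current settings. TMM factors moved the median log2 fold change of all segments in the heart to -0.03, against -0.21 with the library total.

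With entries under 10 reads left out, the number of the 5 segments called between the sites was 2 for the share of entries (1 before, with TRBV15 added as lower), 0 for the leading entry's share (1 before) and 0 for TRBJ1 use (1 before).

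The replicate block, a pairing that the labels do not state, gave TRBV26 a log2 fold change of -8.65 in the heart (edgeR adjusted p = 0.013) and added TRBV12-2 between sham and adjuvant nodes (0.90, edgeR adjusted p = 0.035), so that 3 of 5 were called there. It changed no other call of the 5 segments and turned the sign of differences that were called in neither fit: TRBV12-1 in the heart (-0.99), TRBV15 between MI and sham nodes (0.028), and TRBV12-1, TRBV12-2, TRBV16 and TRBV26 between myosin and adjuvant nodes (0.22, 0.32, 0.067 and 0.099).

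Other turned signs were among differences not called, apart from TRBV12-2 between the sites with distinct entries (-0.011). Distinct entries turned TRBV15 between the sites (-0.10), between sham and adjuvant nodes (-0.083), in the heart (-0.065), between MI and sham nodes (0.0029) and between heart extract and adjuvant nodes (-0.0073), TRBV12-2 between MI and sham nodes (-0.48), and TRBV26 between heart extract and adjuvant nodes (0.049). TRBV15 between MI and sham nodes also turned with TMM factors (0.034) and DESeq2 (0.012). Leaving out the 100 most abundant CDR3s turned TRBV16 in the heart (-0.069) and TRBV26 between heart extract and adjuvant nodes (0.027). Between myosin and adjuvant nodes TRBV16 turned with DESeq2 (0.016) and with entries under 10 reads left out (0.0033), and TRBV12-1 with shared entries left out (0.017).

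With each library left out, the log2 fold change in the heart ran from -1.52 to 0.66 for TRBV12-1 and from -3.17 to 0.72 for TRBV12-2. Between MI and sham nodes it ran from -0.65 to 0.043 for TRBV12-1, -0.77 to 0.61 for TRBV12-2, -0.071 to 0.078 for TRBV15, -0.31 to 0.012 for TRBV16 and -0.67 to 0.23 for TRBV26. Between heart extract and adjuvant nodes it ran from -0.015 to 0.39 for TRBV12-2, -0.025 to 0.25 for TRBV16 and -0.21 to 0.094 for TRBV26, and between myosin and adjuvant nodes from -0.27 to 0.11 for TRBV12-2 and -0.077 to 0.060 for TRBV16. None of these was called. Counts under 2 are not listed, so an unlisted entry is not shown to be absent, and the 5000 cells of a heart limit what its scarce segments can show.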
